A study of Mus musculus with 8 samples.

Results

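The genes for follicular helper function and SLAM signalling were taken as 7 genes, namely Cxcr5, Bcl6, Maf, Sh2d1a, Slamf6, Slamf1 and Ly9. They were found by symbol in the array's platform annotation, which named 16593 genes on the array. The 7 genes had 11 of the 25697 probes, with 3 for Cxcr5, 2 each for Slamf1 and Ly9, and 1 each for the other genes. All 11 were among the 11526 probes detected on at least 2 arrays (detection p under 0.01, the share of negative control probes that were brighter), and the 7 genes were among the 7926 tested. Maf passed this filter through its WT arrays, having been detected on both WT Treg arrays, on 1 of 2 WT Tconv arrays and on 0 of the 4 NIKtg arrays, while the other 10 probes were detected on 8 of 8.

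The study measured RNA in sorted mouse CD4 T cells that overexpressed NIK, a kinase encoded by Map3k14, against WT cells from the same kind of animal. The animals, of C57BL/6 background, were chimeras made with a mixture of bone marrow. The recipients were B6.CD45.1 mice irradiated with 1200 rads in a split dose, and cells were harvested more than 8 weeks after reconstitution. The first donor was NIKtg/CD4Cre/foxp3RFP, which carried the Map3k14 transgene of the Gt(ROSA)26Sortm(Map3k14)Rsky/J strain together with the Cre of B6.Cg-Tg(CD4-Cre)1Cwi/BfluJ, driven from CD4 sequences. The second donor, B6.Thy1.1/Foxp3RFP, gave the WT cells, and either donor carried the reporter of B6.Foxp3tm1Flv/J, in which red fluorescence (RFP) reports Foxp3, the transcription factor of regulatory T cells. WT Treg were gated as RFP+Thy1.1+CD4+GFP-, NIKtg Treg as RFP+Thy1.1-CD4+GFP+, WT Tconv as RFP-Thy1.1+CD4+GFP- and NIKtg Tconv as RFP-Thy1.1-CD4+GFP+, where Tconv stands for conventional T cells. NIKtg and WT cells therefore differed in Cre, GFP and the Thy1 allele as well as in the NIK transgene, and these cannot be told apart. The gates named no CD45 allele, and the sources used here give no age. Each group held 2 arrays, and the labels tie none of them to an animal of its own. The p-values therefore cover the spread between such arrays and no more, and that spread may be technical.

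Follicular helper T cells are the CD4 T cells that enter B cell follicles and help B cells in germinal centres, and a related set of Treg, the follicular regulatory cells, enters the same sites and restrains that help. The chemokine receptor CXCR5 guides either kind of cell into the follicle, and the repressor BCL6 is required for their programme. SLAM receptors sit on T and B cells, mostly bind their own kind on the partner cell, and signal through the small adaptor SAP, the product of Sh2d1a, which T cells need for lasting contact with B cells. NIK starts the noncanonical NF-kB pathway, in which the precursor p100 is cut to p52.

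The promoters of Slamf6 and Slamf1 are shown because these neighbours on chromosome 1 went opposite ways in NIKtg Tconv, and those of Bcl6 because the NIK effects on its transcript differed between the subsets. Sequences are from RefSeq, build GRCm38.p6, which held 4 windows for 3 of the 7 genes. Each window runs 5′ to 3′ on the gene's strand, from 250 bases before to 50 bases after the transcript start. Capitals mark a STAT motif (TTCNNNGAA), a TCF and LEF motif (CTTTGA) or an E-box (CANNTG), searched on both strands. The Slamf6 window lay at chr1:171917212-171917511 on the plus strand and the Slamf1 window at chr1:171766882-171767181 on the plus strand. The Bcl6 windows lay at chr16:23981234-23981533 and chr16:23988803-23989102, either on the minus strand.
Slamf6: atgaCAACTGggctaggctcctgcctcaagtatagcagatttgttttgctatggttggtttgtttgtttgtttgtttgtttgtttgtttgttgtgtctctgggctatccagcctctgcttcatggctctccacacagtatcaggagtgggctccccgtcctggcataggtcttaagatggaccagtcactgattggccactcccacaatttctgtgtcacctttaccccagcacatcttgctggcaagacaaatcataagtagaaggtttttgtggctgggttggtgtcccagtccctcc
Slamf1: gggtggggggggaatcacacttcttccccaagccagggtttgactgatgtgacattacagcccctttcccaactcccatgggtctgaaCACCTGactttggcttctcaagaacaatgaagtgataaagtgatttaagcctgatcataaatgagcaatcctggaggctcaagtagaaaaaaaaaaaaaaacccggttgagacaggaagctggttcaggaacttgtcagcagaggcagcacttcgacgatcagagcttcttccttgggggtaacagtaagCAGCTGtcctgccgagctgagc
Bcl6, first window: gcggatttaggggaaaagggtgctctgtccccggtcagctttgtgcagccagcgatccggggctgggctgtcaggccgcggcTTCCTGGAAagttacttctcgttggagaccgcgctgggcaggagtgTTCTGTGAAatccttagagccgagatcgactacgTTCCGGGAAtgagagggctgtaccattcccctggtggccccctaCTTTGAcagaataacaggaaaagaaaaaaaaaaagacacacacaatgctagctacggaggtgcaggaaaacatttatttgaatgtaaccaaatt
Bcl6, second window: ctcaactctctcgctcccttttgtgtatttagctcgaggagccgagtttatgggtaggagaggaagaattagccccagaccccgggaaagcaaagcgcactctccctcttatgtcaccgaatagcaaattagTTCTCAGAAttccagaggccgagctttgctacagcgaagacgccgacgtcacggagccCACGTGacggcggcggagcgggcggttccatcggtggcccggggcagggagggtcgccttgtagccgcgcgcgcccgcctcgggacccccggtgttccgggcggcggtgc

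The Slamf6 window held 1 E-box and the Slamf1 window 2, a motif found in 72.3% of the 32851 promoter windows of RefSeq. The first Bcl6 window held 3 STAT motifs and 1 CTTTGA, and the second held 1 STAT motif and 1 E-box. The STAT motif was present in 8.30% of windows and CTTTGA in 16%. The NF-kB consensus, searched as a letter pattern on both strands, was in 8.46% of windows and had no match in the windows shown. A match here is a description of the sequence only.

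The 8 arrays detected between 9826 and 10794 probes each, and their mean unnormalized intensity lay between 461.1 and 776.8, lowest on the NIKtg Treg arrays. Arrays of 1 group correlated at 0.989 to 0.994 across the 7926 tested genes, and arrays of different groups at 0.923 to 0.973. All 8 T cell markers on the array were detected on all 8 arrays, and Foxp3 separated the sorts, with means of 13.52 in WT Treg and 13.27 in NIKtg Treg against 8.43 in WT Tconv and 6.54 in NIKtg Tconv on the log2 scale. The transgene's own gene did not separate NIKtg from WT arrays upwards. Map3k14 differed by 0.09 ± 0.11 (SE, limma adjusted p = 0.579) between NIKtg and WT Treg and fell by 0.52 ± 0.11 in Tconv (adjusted p = 0.0102), a call lost with median centring. The sources used here do not say whether its probe lies in the transcript of the transgene, so the gene does not check the labels. In sorted populations such as these, fewer cells of a type and less RNA per cell cannot be told apart.

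Cxcr5, the receptor for CXCL13 that takes T cells into B cell follicles, rose 9.34-fold in NIKtg Tconv and did not pass the test in NIKtg Treg. Levels here and below are background-corrected, quantile-normalized log2 intensities of a gene's brightest probe, given for array 1 and then array 2 of a group. Cxcr5 read 9.55 and 9.24 in WT Tconv, against 12.76 and 12.48 in NIKtg Tconv. It read 11.47 and 11.38 in WT Treg, against 11.03 and 11.11 in NIKtg Treg. No group overlapped another, and the order from high to low was NIKtg Tconv, WT Treg, NIKtg Treg and WT Tconv. The log2 difference between NIKtg and WT was 3.22 ± 0.14 in Tconv (SE, n = 2 arrays a group; limma adjusted p = 2.71e-05), which ranked 10 of 7926 genes by p. In Treg it was -0.35 ± 0.14 (adjusted p = 0.121). The NIK effect in Treg minus that in Tconv was -3.58 ± 0.20 (adjusted p = 0.000182). WT Treg had 4.07 times the Cxcr5 signal of WT Tconv (log2 difference 2.03 ± 0.14, adjusted p = 0.000119), whereas NIKtg Treg lay 1.55 ± 0.14 log2 units below NIKtg Tconv (difference -1.55, adjusted p = 0.000261).

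The 3 Cxcr5 probes gave like results. In Tconv their log2 differences between NIKtg and WT were 3.22, 3.62 and 3.61, all past the threshold when adjusted over the 10819 named probes. In Treg they were -0.35, -0.53 and -0.47, with adjusted p of 0.124, 0.106 and 0.0726, so none passed. All 3 showed the same order of the 4 group means.

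**Figure D1:**
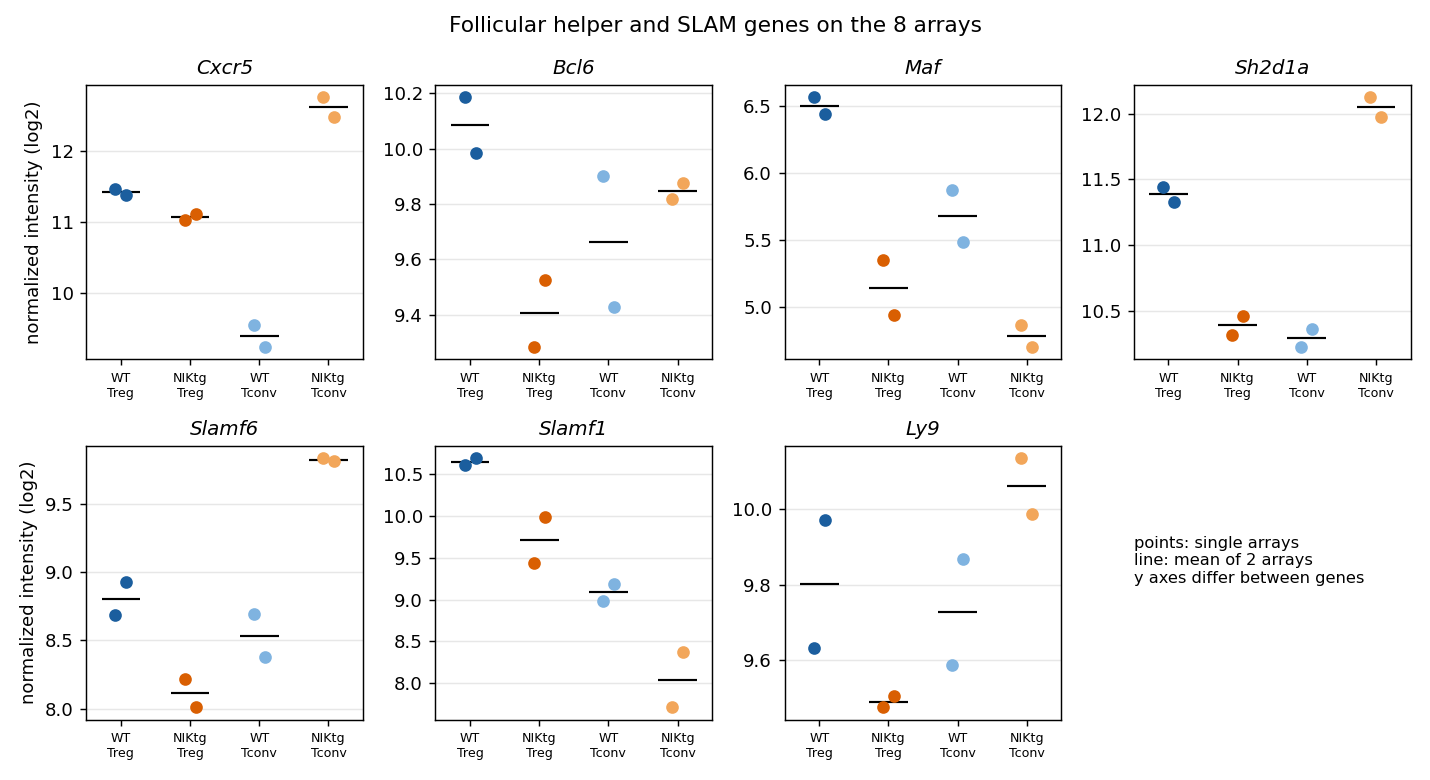
Normalized log2 intensity (y axis, scale differs by gene) of each of the 7 genes on the 8 arrays, by group (x axis); points are single arrays and lines the mean of 2. Cxcr5, Sh2d1a and Slamf6 are highest in NIKtg Tconv, while Maf and Slamf1 are highest in WT Treg and lowest in NIKtg Tconv.

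Of the transcription factors, Bcl6 fell in NIKtg Treg and Maf was below detection on every NIKtg array. Bcl6, the repressor that the follicular programme depends on, read 10.18 and 9.99 in WT Treg, against 9.28 and 9.52 in NIKtg Treg. In Tconv it read 9.90 and 9.43 in WT and 9.82 and 9.88 in NIKtg cells. The Treg groups were apart, and the NIKtg Tconv arrays lay inside the range of the WT Tconv arrays. Bcl6 fell by 0.68 ± 0.17 in NIKtg Treg (limma adjusted p = 0.0326, 1.60-fold lower), and in Tconv the difference was 0.18 ± 0.17 (adjusted p = 0.447). The effects in the 2 subsets differed by -0.87 ± 0.24 (adjusted p = 0.0274), a call lost under 5 of the 19 alternatives that applied. The NIKtg Treg call was lost under 6 of 20 alternatives. These included leaving out WT Treg 1, WT Treg 2, NIKtg Treg 1 or either NIKtg Tconv array, with differences from -0.78 to -0.56.

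Between subsets, Bcl6 differed by 0.42 ± 0.17 in WT cells (Treg minus Tconv, adjusted p = 0.119) and by -0.44 ± 0.17 in NIKtg cells (adjusted p = 0.0758). Bcl6 was thus not called between Treg and Tconv of either genotype, though it was under several alternatives given in the closing section.

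Maf, a transcription factor that in follicular helper cells supports interleukin 4 and interleukin 21 production, was dim. It read 6.57 and 6.45 in WT Treg, against 5.35 and 4.94 in NIKtg Treg. It read 5.87 and 5.49 in WT Tconv, against 4.87 and 4.71 in NIKtg Tconv. The NIKtg arrays lay below the WT arrays of the same subset, without overlap. Because Maf was not detected in NIKtg cells, its fold there is a bound set by detection, and because it entered the test through WT arrays alone, its adjusted p is also given from a fit with no detection filter. It was at least 1.58-fold lower in NIKtg Treg (fitted log2 difference -1.36 ± 0.18, limma adjusted p = 0.00350, and 0.00588 with no filter) and at least 1.10-fold lower in NIKtg Tconv (fitted -0.89 ± 0.18, adjusted p = 0.00994, and 0.0183 with no filter). Without WT Tconv 1, the 1 WT Tconv array on which Maf was detected, or without NIKtg Tconv 2, Maf was no longer called in Tconv. The NIK effects in the 2 subsets did not pass the test of their difference (-0.47 ± 0.25, adjusted p = 0.177). In WT cells Maf was at least 1.65-fold higher in Treg than in Tconv (fitted 0.83 ± 0.18, limma adjusted p = 0.0150, and 0.0276 with no filter). Here it passed the detection filter through WT Treg, the group in which it was higher. That call was lost without WT Treg 1, WT Treg 2 or WT Tconv 2. In NIKtg cells neither subset was above detection, so no fold is given.

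Sh2d1a, which encodes the adaptor SAP, fell in NIKtg Treg and rose in NIKtg Tconv. It read 11.44 and 11.33 in WT Treg, against 10.31 and 10.46 in NIKtg Treg. It read 10.23 and 10.36 in WT Tconv, against 12.12 and 11.98 in NIKtg Tconv. NIKtg Treg and WT Tconv overlapped at the bottom, WT Treg stood above them and NIKtg Tconv was highest. The fall in Treg was 2.00-fold (log2 difference -1.0 ± 0.12, limma adjusted p = 0.00221) and the rise in Tconv 3.38-fold (1.76 ± 0.12, adjusted p = 0.000161). The effects differed by -2.75 ± 0.16 log2 units (adjusted p = 0.000182). The gap between subsets turned with genotype, from 1.09 ± 0.12 higher in WT Treg than in WT Tconv (adjusted p = 0.000691) to -1.66 ± 0.12 for NIKtg Treg minus NIKtg Tconv (adjusted p = 9.03e-05). These comparisons share arrays, so they are not independent. The 5 Sh2d1a calls held under every alternative that applied to them.

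**Figure D2:**
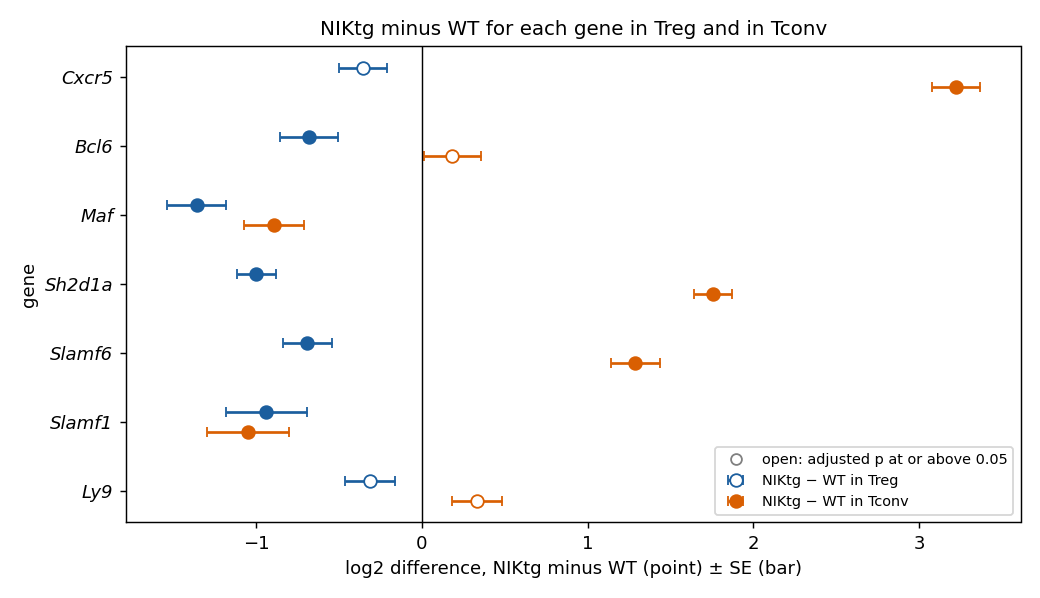
Log2 difference between NIKtg and WT arrays (x axis; point, with the SE as a bar) for each gene (y axis) in Treg and in Tconv; open points did not pass the adjusted p threshold of 0.05. In Treg every point is below 0, from -0.31 for Ly9 to -1.36 for Maf, while in Tconv the points run from -1.05 for Slamf1 to 3.22 for Cxcr5.

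Of the 3 SLAM receptors, Slamf6 and Ly9 had 1 order of group means and Slamf1 had another. Slamf6, which encodes Ly108, a receptor that binds itself between T and B cells, read 8.68 and 8.93 in WT Treg, against 8.22 and 8.01 in NIKtg Treg. It read 8.69 and 8.38 in WT Tconv, against 9.83 and 9.81 in NIKtg Tconv. WT Treg and WT Tconv overlapped, NIKtg Treg lay below them and NIKtg Tconv above. Slamf6 fell 1.61-fold in NIKtg Treg (log2 difference -0.69 ± 0.15, limma adjusted p = 0.0188) and rose 2.44-fold in NIKtg Tconv (1.29 ± 0.15, adjusted p = 0.00111). The effects differed by -1.98 ± 0.21 (adjusted p = 0.000822). The Treg call was lost without WT Treg 1, WT Treg 2 or NIKtg Treg 2, with differences from -0.81 to -0.57. Slamf6 was not called between the WT subsets (0.27 ± 0.15, adjusted p = 0.228), and NIKtg Treg lay below NIKtg Tconv (-1.71 ± 0.15, adjusted p = 0.000214).

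Slamf1, which encodes CD150, the receptor that gave the family its name, fell in both subsets. It read 10.61 and 10.70 in WT Treg, against 9.44 and 9.99 in NIKtg Treg. It read 8.99 and 9.18 in WT Tconv, against 7.71 and 8.37 in NIKtg Tconv. The 4 groups did not overlap, and the order from high to low ran from WT Treg through NIKtg Treg and then WT Tconv to NIKtg Tconv, so either Treg group stood above either Tconv group. Slamf1 fell by 0.94 ± 0.24 in NIKtg Treg (limma adjusted p = 0.0356, 1.91-fold) and by 1.05 ± 0.24 in NIKtg Tconv (adjusted p = 0.0170, 2.07-fold). The difference of these effects was 0.11 ± 0.35 and did not pass (adjusted p = 0.817), and its sign turned under 3 other scalings (-0.43 to -0.021). Treg exceeded Tconv by 1.57 ± 0.24 in WT cells (adjusted p = 0.00374) and by 1.68 ± 0.24 in NIKtg cells (adjusted p = 0.00175).

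The second Slamf1 probe gave -0.89 ± 0.14 in Treg (adjusted p = 0.00680 over probes) and -1.08 ± 0.14 in Tconv (adjusted p = 0.00207). The falls of Slamf1 on its brightest probe lost their call without WT Treg 1, WT Treg 2 or NIKtg Treg 1 in Treg (-0.98 to -0.66), and without WT Tconv 1, WT Tconv 2 or NIKtg Tconv 1 in Tconv (-1.15 to -0.72).

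Ly9, which encodes CD229, a SLAM receptor on T and B cells, did not pass in either subset on its brightest probe. It read 9.63 and 9.97 in WT Treg, against 9.48 and 9.51 in NIKtg Treg. It read 9.59 and 9.87 in WT Tconv, against 10.13 and 9.99 in NIKtg Tconv. The WT subsets overlapped, and NIKtg Treg lay lowest and NIKtg Tconv highest. The difference between NIKtg and WT was -0.31 ± 0.15 in Treg (limma adjusted p = 0.178) and 0.33 ± 0.15 in Tconv (adjusted p = 0.135), and neither passed. The effects differed by -0.64 ± 0.21 (adjusted p = 0.0468), a call lost when any of 6 of the 8 arrays was left out. In NIKtg cells Treg lay below Tconv (-0.57 ± 0.15, adjusted p = 0.0206), a call lost without any 1 of the 4 NIKtg arrays. In WT cells Ly9 differed by 0.07 ± 0.15 (adjusted p = 0.759).

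The dimmer Ly9 probe moved the same ways and further. It read 7.64 and 7.69 in WT Treg, against 5.93 and 6.67 in NIKtg Treg. It read 6.79 and 7.30 in WT Tconv, against 8.69 and 8.35 in NIKtg Tconv. The order of the group means was that of the brighter probe, with no overlap between NIKtg and WT in either subset. Its differences were -1.36 ± 0.27 in Treg (limma adjusted p = 0.0131 over probes) and 1.47 ± 0.27 in Tconv (adjusted p = 0.00673), and the effects differed by -2.84 ± 0.38 (adjusted p = 0.00165). The probes' target sequences are not used here, so whether the Ly9 probes read different transcripts was not tested.

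**Figure D3:**
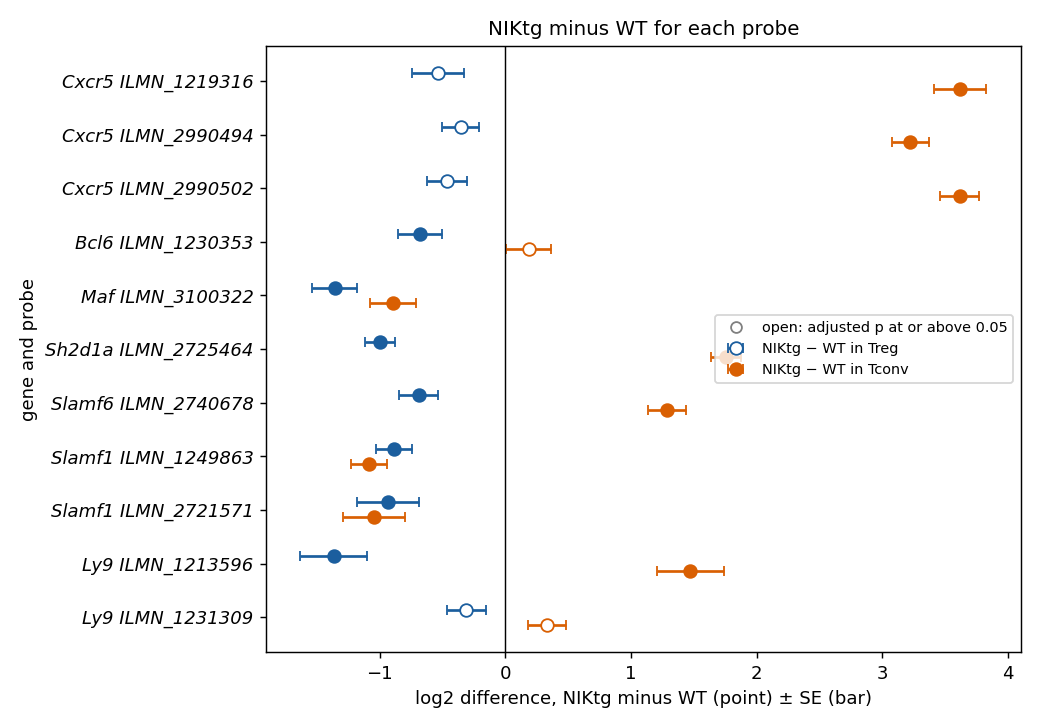
Log2 difference between NIKtg and WT arrays (x axis; point, with the SE as a bar) for each of the 11 probes (y axis) in Treg and Tconv; open points did not pass the adjusted p threshold of 0.05 over all named probes. The 3 Cxcr5 probes and the 2 Slamf1 probes lie close to each other, and the 2 Ly9 probes differ, at -0.31 and -1.36 in Treg.

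Counted over the 7 genes, NIKtg minus WT in Treg passed for 5, all lower (Bcl6, Maf, Sh2d1a, Slamf6 and Slamf1). Maf is in this count through its WT arrays alone, and of the 6 genes detected on all 8 arrays 4 were lower. Over all genes tested 19.9% were called, 10.4% higher and 9.45% lower. The median over the 7 genes was -0.69, beside 0.06 over all genes tested. Of the 8 T cell markers, 3 were called lower in NIKtg Treg, namely Cd3g (-0.51), Cd5 (-0.63) and Cd28 (-0.53), and 0 were called higher. Not called were Cd3d (-0.02), Cd4 (-0.06), Cd2 (-0.26), Cd3e (-0.26) and Thy1 (0.24). The summed linear level of the 8 was 66656 to 67143 in NIKtg Treg against 75462 to 75566 in WT Treg. The part of these markers in the falls of the genes above was not tested. The count was 2 when either WT Treg array was left out, with Maf and Sh2d1a called, and 3 without NIKtg Treg 1, with Slamf6 as well. In Tconv 5 passed, with 3 higher (Cxcr5, Sh2d1a and Slamf6) and 2 lower (Maf, again through WT arrays, and Slamf1), where 30.1% of genes were called, 12.9% higher and 17.2% lower. The median there was 0.33, beside -0.08 over all genes. Without WT Tconv 1 the count was 3, namely Cxcr5, Sh2d1a and Slamf6. The groups of NIKtg and WT arrays did not overlap for 7 of 7 genes in Treg and for 6 in Tconv, where 65.9% and 70.1% of all genes did not overlap.

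The share of calls over all genes depended on how arrays were scaled, and the directions of the 7 genes in the NIK comparisons did not. With each array centred on its median in place of quantile normalization, the median of all genes in Treg moved from 0.06 to -0.27, and 8.19% of the called genes were higher, against 52.4% with quantile normalization. All 7 genes were then called lower in Treg. In Tconv the median moved from -0.08 to 0.09 and the share of calls that were higher from 42.9% to 68.0%. The same 5 genes were called there in the same directions, where 1167 of all genes were called higher and 550 lower.

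The NIK effect in Treg minus the NIK effect in Tconv passed for 5 of 7 genes, all lower (Cxcr5, Bcl6, Sh2d1a, Slamf6 and Ly9), where 39.2% of all genes were called, 23.0% higher and 16.1% lower. The median was -0.87, beside 0.15 over all genes. Cxcr5, Sh2d1a and Slamf6 were called here under the 19 alternatives that applied. The count was 3, those genes, without NIKtg Treg 1, NIKtg Tconv 1 or NIKtg Tconv 2. Maf and Slamf1 were the genes that fell in both subsets and were not called. With median centring the median over all genes was -0.38, and 14.8% of calls were higher against 58.8%.

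Between the subsets, 4 of 7 genes were higher in WT Treg than in WT Tconv (Cxcr5, Maf, Sh2d1a and Slamf1) and 0 were lower, where 24.0% of genes were called, 11.1% higher and 12.9% lower. The Treg and Tconv arrays did not overlap for 5 of 7 genes in WT cells, where 66.3% of all genes did not overlap, and for 7 of 7 in NIKtg cells, where 74.2% did not. The median in WT cells was 0.83, beside -0.06 over all genes. In NIKtg cells 1 gene (Slamf1) was higher in Treg and 4 (Cxcr5, Sh2d1a, Slamf6 and Ly9) were lower, where 39.9% of genes were called, 23.1% higher and 16.9% lower. The median there was -0.57, beside 0.08. With median centring 10.5% of the calls in NIKtg cells were higher, against 57.8%, and the median of all genes was -0.47. Cxcr5 and Sh2d1a were called on opposite sides of Tconv in WT and NIKtg Treg, and Slamf1 on the same side.

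The SLAM genes lie in a cluster on mouse chromosome 1, in the RefSeq order Cd244a, Ly9, Slamf7, Cd48, Slamf1, Cd84 and Slamf6, with the pseudogene Tma7-ps between Cd48 and Slamf1. In NIKtg Tconv, 2 of the 3 other SLAM genes tested rose and 0 fell, with a median of 0.68 for the 3. Of all genes tested, 12.9% were called higher there and 17.2% lower. Slamf7, whose product CRACC binds itself on lymphocytes, rose by 1.93 ± 0.36 (limma adjusted p = 0.00754), and Cd84, a self-binding SLAM receptor, by 0.68 ± 0.13 (adjusted p = 0.00877). Cd48, the ligand of CD244 and CD2, differed by 0.48 ± 0.21 (adjusted p = 0.129). Slamf1 lies between Cd48 and Cd84 and fell in the same cells.

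In NIKtg Treg 0 of these 3 genes passed, with a median of -0.43 and differences of -0.24 (Slamf7, adjusted p = 0.666), -0.56 (Cd48, 0.104) and -0.43 (Cd84, 0.0580). Over all genes tested 19.9% were called there. Cd48 and Cd84 were lower at unadjusted limma p under 0.05, and they ranked 2433 and 1732 of 7926 genes by p. The effects in Treg and Tconv differed for 3 of 3, where 39.2% of all genes were called, 23.0% higher and 16.1% lower. The differences were -2.17 ± 0.51 for Slamf7 (limma adjusted p = 0.0145), -1.10 ± 0.19 for Cd84 (adjusted p = 0.00403) and -1.05 ± 0.30 for Cd48 (adjusted p = 0.0303). The Cd244a and Slamf9 probes were detected on 0 of 8 arrays.

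**Figure D4:**
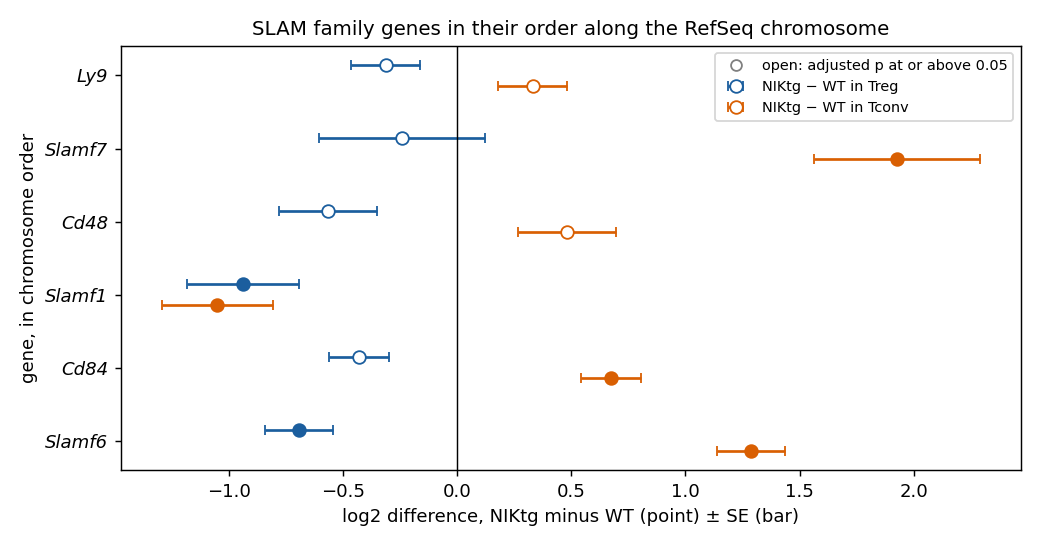
Log2 difference between NIKtg and WT arrays (x axis; point, with the SE as a bar) for the 6 SLAM genes tested, in their order along mouse chromosome 1 (y axis, not to distance); open points did not pass the adjusted p threshold of 0.05. In Tconv Slamf1 is below 0 at -1.05, and the other 5 genes are above 0, from 0.33 to 1.93.

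Among signalling molecules downstream of SLAM receptors, 2 of 12 tested were called in NIKtg Treg, both lower (16.7%, beside the 19.9% of all genes called there), and the median was -0.15. In NIKtg Tconv 4 rose and 3 fell, where 12.9% of all genes were higher and 17.2% lower, and the median was -0.06. With median centring the 3 that fell (Dok2, Prkcq and Ptpn6) were not called, which left 4 higher and 0 lower. Over all genes 1167 were then called higher and 550 lower. Fyn, the Src family kinase that SAP brings to SLAM receptors, fell by 1.97 ± 0.25 in NIKtg Treg (limma adjusted p = 0.00307) and rose by 1.97 ± 0.25 in NIKtg Tconv (adjusted p = 0.00157). Fyn read 9.08 and 8.60 in WT Treg, against 6.69 and 7.05 in NIKtg Treg. It read 7.79 and 8.27 in WT Tconv, against 10.24 and 9.76 in NIKtg Tconv. Its groups thus ran in the order NIKtg Tconv, WT Treg, WT Tconv and NIKtg Treg, without overlap, which is also the order of the Slamf6 means.

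Dok1, an adaptor that dampens kinase signalling, was at least 2.98-fold lower in NIKtg Treg (adjusted p = 0.00373) and at least 2.89-fold higher in NIKtg Tconv (adjusted p = 0.00313), each bound set by a group in which 1 of 2 arrays detected it. Ptpn22, a phosphatase that restrains T cell receptor signalling, differed by -0.30 ± 0.13 in Treg (adjusted p = 0.145) and rose by 1.07 ± 0.13 in Tconv (adjusted p = 0.00142). The SAP-related adaptors Sh2d1b1 and Sh2d1b2 were detected on 0 of 8 arrays.

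Of 14 other follicular helper genes tested, 0 rose and 5 fell in NIKtg Treg, where 10.4% of all genes were called higher and 9.45% lower, and the median was -0.07. Of the 11 detected on all 8 arrays, 4 fell and the median was 0.12. The 5 were Batf (-1.93 ± 0.17, limma adjusted p = 0.00122) and Irf4 (-1.37 ± 0.18, adjusted p = 0.00373), AP-1 and IRF partners needed for follicular helper cells, with Icos (-1.02 ± 0.14, adjusted p = 0.00390), a costimulatory receptor, Il6ra (-1.76 ± 0.27, adjusted p = 0.00598), a receptor chain for interleukin 6, and Pdcd1. Pdcd1, the gene for PD-1, was lower by at least 1.23-fold (adjusted p = 0.0173). It lay outside the rule for named genes and was chosen after its values were seen. The genes Tox, Tox2 and Tcf7 had no named probe.

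In NIKtg Tconv 3 of the 14 rose and 6 fell, where 12.9% of all genes were higher and 17.2% lower, and the median was -0.48. Of the 11 detected on all 8 arrays, 2 rose and 5 fell. Batf rose by 1.83 ± 0.17 (limma adjusted p = 0.000565), from 8.84 and 8.78 in WT Tconv to 10.86 and 10.41 in NIKtg Tconv. Il4, a cytokine that follicular helper cells give to B cells, read 8.09 and 9.45 in WT Tconv and was below detection on the 4 NIKtg arrays, so it entered the test through WT arrays alone. It was at least 9.38-fold lower in NIKtg Tconv, with a limma adjusted p of 0.000925 in a fit with no detection filter. Icos fell by 0.90 ± 0.14 (adjusted p = 0.00339) and Il6ra by 1.67 ± 0.27 (adjusted p = 0.00398). Il21, the helper cytokine of the germinal centre, was below detection in NIKtg Tconv and did not pass (adjusted p = 0.0518), with 8.65 and 5.75 in WT Tconv. Genes of the follicular list thus moved both ways in the cells in which Cxcr5, Sh2d1a and Slamf6 rose.

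Of 12 genes that oppose the follicular programme, 2 rose and 3 fell in NIKtg Treg, and 1 rose and 5 fell in NIKtg Tconv, with medians of -0.01 and -0.21. Of all genes tested, 10.4% were higher and 9.45% lower in Treg, and 12.9% were higher and 17.2% lower in Tconv. Klf2, which keeps T cells recirculating and restrains the follicular programme, rose by 0.66 ± 0.10 in NIKtg Treg (limma adjusted p = 0.00654), a call lost with median centring, and fell by 0.67 ± 0.10 in NIKtg Tconv (adjusted p = 0.00337). Ccr7, the receptor that holds T cells in the T cell zone, differed by 0.72 ± 0.24 in Treg (adjusted p = 0.0729) and fell by 1.94 ± 0.24 in Tconv (adjusted p = 0.00142). Foxo1, a factor of naive T cells that restrains BCL6, fell by 1.35 ± 0.14 in Tconv (adjusted p = 0.000734) and differed by 0.01 ± 0.14 in Treg (adjusted p = 0.972). Tbx21, the T-bet gene, was at least 3.08-fold lower in NIKtg Treg (adjusted p = 0.00217). The lists of follicular, opposing, SLAM and signalling genes were chosen with results of these arrays known.

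**Figure D5:**
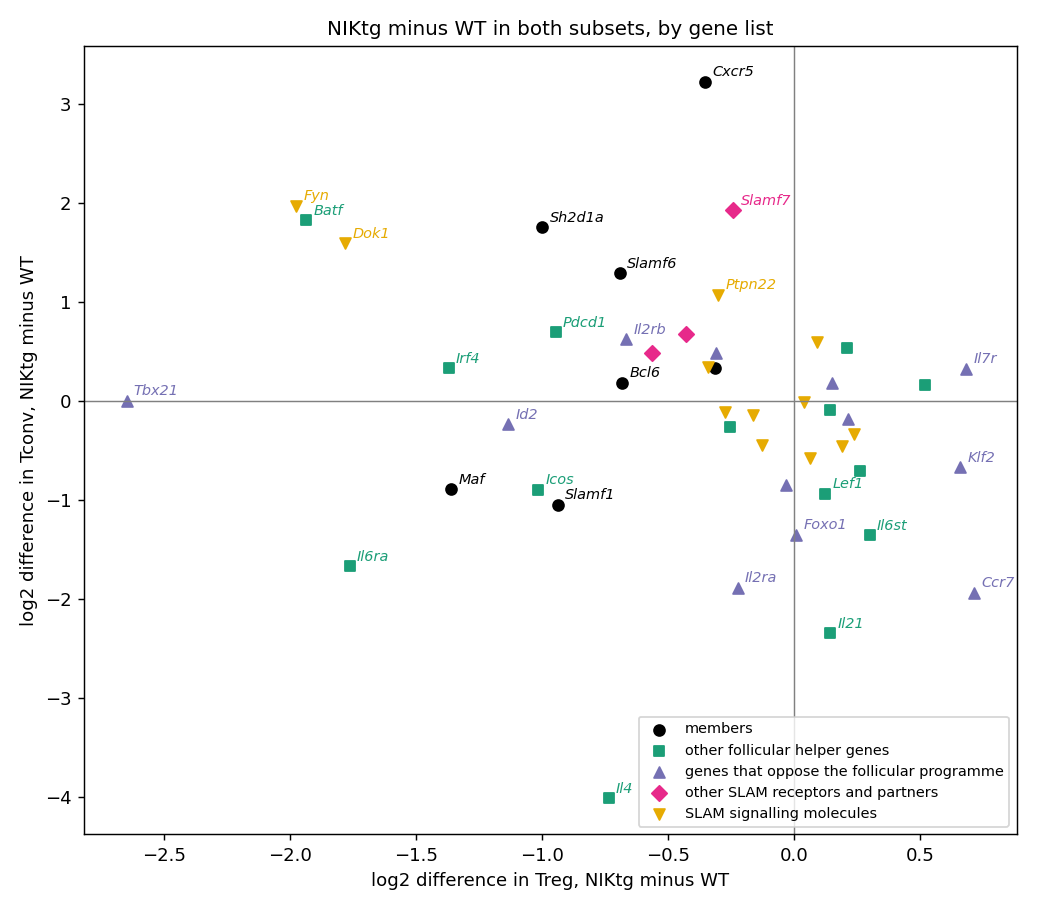
Log2 difference between NIKtg and WT arrays in Treg (x axis) and in Tconv (y axis), 1 point per gene, for the 7 genes and the 4 related lists. Cxcr5, Sh2d1a, Slamf6, Batf, Fyn and Dok1 lie at upper left (below 0 in Treg, above 0 in Tconv), Maf and Slamf1 lie at lower left, and Klf2 and Ccr7 lie at lower right.

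Cxcr5, Bcl6, Slamf6, Slamf1 and Ly9 are also expressed by B cells, so B cell markers are given beside them. Of 13 B cell markers on the array, Pax5, Ebf1, Blnk and Cr2 were detected on 0 of 8 arrays, and Cd79a, Ms4a1, Blk and Fcrla on 1 of 8. The summed linear level of the 13 was 872 to 1106 in WT Tconv, 2208 to 2259 in NIKtg Tconv, 2720 to 3039 in WT Treg and 3996 to 4409 in NIKtg Treg. Most of this sum in NIKtg cells was Cd74, the invariant chain. Without Cd74 the other 12 summed to 513 to 622 in WT Tconv and 815 to 949 in NIKtg Tconv. In Treg they summed to 1224 to 1314 in WT and 837 to 889 in NIKtg cells. This sum was thus higher in NIKtg Tconv and lower in NIKtg Treg. It still held Cd22, which read 5.97 and 5.85 in WT Tconv, against 8.88 and 8.53 in NIKtg Tconv. No sum without Cd22 was made, so the sum does not show that the markers as a set moved as Cxcr5 did. Of the 5 tested, 1 was called higher and 2 lower in NIKtg Treg, namely Cd74 (1.05), Cd79b (-0.47) and Fcmr (-1.65), and Cd22 differed by -1.11 (limma adjusted p = 0.0553). Over all genes tested, 10.4% were called higher and 9.45% lower in Treg, and 12.9% higher and 17.2% lower in Tconv. In NIKtg Tconv 2 of the 5 markers were higher and 2 lower. There Cd22 rose by 2.79 ± 0.34 (limma adjusted p = 0.00133) and Cd74 by 1.70 ± 0.16 (adjusted p = 0.000557), while Cd79b fell by 0.59 ± 0.11 (adjusted p = 0.00861) and Fcmr was lower by at least 1.38-fold (adjusted p = 0.0491). The Fcmr call was lost under each of the other scalings (limma adjusted p from 0.0627 to 0.126) and with no detection filter (0.0902). With median centring the Cd79b call was lost too (adjusted p = 0.189), which left 2 markers higher and 0 lower. The part of the markers that were detected in the Cxcr5 result was not tested.

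Slamf7, Slamf6 and Sh2d1a are likewise used by NK and CD8 T cells. Of 9 markers of these cells, Cd8a, Ncr1, Klra1 and Gzma were detected on 0 of 8 arrays. The summed level of the 9 was 1844 to 1858 in WT Treg, 1854 to 2044 in NIKtg Treg, 4315 to 7664 in WT Tconv and 12986 to 16681 in NIKtg Tconv. Without Nkg7 the other 8 summed to 2832 to 4290 in WT Tconv and 2445 to 2706 in NIKtg Tconv. In NIKtg Treg 0 of the 5 tested were called by limma (1 at unadjusted p under 0.05), where 19.9% of all genes were called. In NIKtg Tconv 2 were higher and 3 lower, where 12.9% of all genes were called higher and 17.2% lower. Nkg7, a granule protein gene, rose by 2.44 ± 0.38 in NIKtg Tconv (limma adjusted p = 0.00354), and Xcl1, a chemokine gene, by 1.23 ± 0.37 (adjusted p = 0.0431). Cd8b1 fell by 1.25 ± 0.16 (adjusted p = 0.00174) and Klrd1 by 1.23 ± 0.39 (adjusted p = 0.0490). Klrb1c was detected on the WT Tconv arrays alone and entered the test through them. It was at least 6.32-fold lower in NIKtg Tconv (limma adjusted p = 0.000565, and 0.000957 with no detection filter). The part of these genes in the Sh2d1a and SLAM results was not tested. Of 13 myeloid and dendritic cell markers, Itgam, Cd14, Fcgr3, Itgax, Clec9a and S100a9 were detected on 0 of 8 arrays, and the summed level of the 13 was 1251 to 1259 in WT Treg, 1221 to 1283 in NIKtg Treg, 1080 to 1191 in WT Tconv and 783 to 851 in NIKtg Tconv. Of the 6 tested, 3 were called lower in NIKtg Treg (Adgre1, Fcer1g and Tyrobp) and 4 in NIKtg Tconv (these and Siglech), with 0 higher in either. Over all genes tested, 9.45% were called lower in Treg and 17.2% in Tconv. In Treg the 3 markers detected on all 8 arrays lay the other way, uncalled, namely Lyz1 (0.47), Lyz2 (0.59) and Siglech (0.30). The Siglech call in Tconv was lost with median centring (limma adjusted p = 0.388). Adgre1 and Tyrobp were below detection on the NIKtg arrays, so they entered the test through WT arrays alone. Adgre1 was at least 1.95-fold lower in Treg (limma adjusted p = 0.00712, and 0.0120 with no detection filter). In Tconv it was at least 1.66-fold lower (adjusted p = 0.010, and 0.0183 with no filter). Tyrobp was not called in Tconv with no filter (adjusted p = 0.0622), with no background correction or in the authors' normalized table. The falls called in both subsets lay in the same direction as those of Maf and Slamf1, and their part in those results was not tested.

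Over the 8 arrays, Sh2d1a ran most closely with Slamf6 among the 7 genes (Pearson r = 0.885), then with Cxcr5 (0.870) and Ly9 (0.765). Slamf1 ran with Maf (0.757) and against Slamf6 (-0.62). These coefficients describe 8 arrays in 4 groups, so they mostly restate the group means, and they carry no test. Among tested genes whose SD over the arrays was at least 0.5, the patterns most like Cxcr5 were those of Myo3b (0.977) and Plscr1 (0.973), and most like Sh2d1a those of Il10ra (0.990) and Vmp1 (0.989). Golga7 (0.986) and Klk1b24 (0.983) were most like Slamf6, and Tgfbr1 (0.981) and Hsd3b7 (0.977) most like Slamf1. For Maf they were Slc15a2 (0.958) and Agfg1 (0.956), for Ly9 Mlf1 (0.976) and Rock1 (0.958), and for Bcl6 Cemip2 (0.904) and Arid5b (0.888).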

How the data were processed

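RNA of sorted CD4 T cells was measured on 8 Illumina arrays, which per the submitters' processing notes were read with GenomeStudio 2010.1. Per the labels' protocols, biotinylated cRNA was made with an amplification kit. The authors deposited unnormalized probe intensities with, per the file headers, a detection p-value after each, whose steps imply 798 negative controls. They also deposited a table of normalized intensities on a linear scale. The sources used here do not name its method, its array medians lie between 118.6 and 118.8, and it ranks the probes of each array as the unnormalized values do. It served as an alternative.

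With limma 3.58.1 in R 4.3.3, intensities were background-corrected (nec, offset 16), put on the log2 scale and quantile normalized, a scale computed here. A probe was kept where at least 2 arrays detected it at p under 0.01, and a gene's probe with the highest mean was used. Of 25697 probes 23978 had 1 gene symbol, none had several and 1719 were unnamed. The model had a coefficient for each group and used the 8 arrays together (4 residual degrees of freedom; lmFit and eBayes, two-sided). Adjustment followed Benjamini and Hochberg over 7926 genes, with a threshold of 0.05, and each adjusted p in the text is limma's. The fit was tested on simulated data. No 2 arrays were identical, and precision is limited by the number of arrays. A fold against a group in which 1 or 2 arrays were below detection is given as "at least", computed from the lowest detected signal of each array. No slide is given in the headers.

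The 7 genes and the other lists were chosen with earlier results of these data known. Genes named from the other lists were, per list and comparison, up to 4 called genes of smallest adjusted p and 1 uncalled gene with the largest change, and a subset is printed. Settings tried as alternatives were the background correction, the scaling, the detection filter, the probe rule, the variance model, the groups in the fit, a replicate block and the omission of each array. For the promoters, Python 3.11.15 searched the RefSeq windows for motifs.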

Additional observations from a re-analysis of the deposited data

Results flagged for a closer look

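The NIK effect (NIKtg minus WT) differed between Treg and Tconv by a limma test of the difference itself for the values below, each the effect in Treg minus the effect in Tconv on the log2 scale. Groups of 2 arrays were too small to test for a single array far from the rest. Among the 7 genes the differences were -3.58 for Cxcr5, -2.75 for Sh2d1a, -1.98 for Slamf6, -0.87 for Bcl6 and -0.64 for Ly9. The Bcl6 call was lost under 5 of 19 alternatives, and the Ly9 call when any of 6 arrays was left out.

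Among other follicular helper genes they were -3.76 for Batf, -1.70 for Irf4, 3.28 for Il4 and -1.64 for Pdcd1, and the last of these genes and Il4 were below detection in at least 1 group. Among genes that oppose the programme they were 1.33 for Klf2, 2.65 for Ccr7, 1.36 for Foxo1 and -2.65 for Tbx21, which was below detection in NIKtg Treg. Among SLAM genes they were -1.10 for Cd84, -2.17 for Slamf7 and -1.05 for Cd48, and among signalling molecules -3.95 for Fyn, -3.37 for Dok1, -1.38 for Ptpn22 and 0.64 for Prkcq. In some groups Slamf7 and Dok1 were detected on 1 of 2 arrays.

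Among markers of other cells the differences were -3.91 for Cd22, -1.0 for Fcmr, 0.84 for Siglech, 0.94 for Lyz1, 1.5 for Cd8b1, 2.11 for Klrb1c and -2.64 for Nkg7. Among T cell markers they were -0.92 for Cd3g and -0.98 for Cd28, and they were 1.64 for Foxp3 and 0.61 for Map3k14. With median centring Prkcq, Siglech, Lyz1 and Map3k14 were not called. Klrb1c was detected in WT Tconv alone. Fcmr was below detection in NIKtg Tconv and was not called with no detection filter (limma adjusted p = 0.0555).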

How the results depend on the processing

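Of 35 differences (7 genes in 5 comparisons), 18 kept direction and call under every alternative that applied, up to 20 each, 9 lost the call in at least 1, 5 gained it, and 3 turned sign in at least 1. None of those that turned was called. The difference of NIK effects for Slamf1 (0.11) was -0.028 with no background correction, -0.43 with median centring, -0.021 in the authors' normalized table, -0.16 without NIKtg Treg 2 and -0.22 without NIKtg Tconv 1. Without 1 array it ran from -0.22 to 0.44. With 1 array left out, Ly9 between WT subsets (0.07) ran from -0.094, without WT Treg 2, to 0.24, and was -0.07 without WT Tconv 1. With 1 array left out, Bcl6 in Tconv (0.18) ran from -0.052, without WT Tconv 2, to 0.42. Bcl6 between subsets passed under 4 alternatives in WT cells (0.38 to 0.66) and 9 in NIKtg cells (-1.03 to -0.40).

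Without a detection filter 3 of the 7 genes were called in Treg, against 5, and 7.88% of 16593 genes against 19.9% of 7926. Leaving out each array in turn gave 2 to 5 genes called in Treg, 3 to 5 in Tconv, 3 to 4 for the difference of effects, 3 to 5 between WT subsets and 4 to 6 between NIKtg subsets. Over all genes these fits called 506 to 1624 in Treg, 964 to 2531 in Tconv, 2005 to 3109 for the difference, 994 to 2013 between WT subsets and 1908 to 3185 between NIKtg subsets, against 1575, 2384, 3106, 1906 and 3165. A lone array was assumed to vary like the other groups. With median centring 1252 genes were called between WT subsets, and 53.1% of these calls were higher against 46.3%. The cause of these changes was not tested, apart from the fewer arrays.

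The replicate numbers were tried as a replicate block, which called 5, 5, 5, 4 and 5 of the 7 genes in the 5 comparisons, as without it, and 1586 genes over all in Treg. Same-numbered arrays deviated together at r between -0.02 and 0.14, so the numbers were not used as pairs. A slide block was not run because the headers give no slide. The dimmest probe of each gene, an alternative chosen after seeing the data, called Ly9 in both NIK comparisons. The list counts over genes detected on all arrays, the fit of list genes with no filter and the marker sums without Cd74 or Nkg7 were also chosen after seeing the data.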
